A study of Mus musculus with 4 samples.

Results

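The mouse genes with symbols from Zfp900 to Zfp999 encode zinc finger proteins, most of them in rodent gene families. Members were taken by symbol from the array's annotation, from probe sets that name 1 gene only, and the probe sets of a gene were averaged. The rule gave 34 genes on 36 probe sets, out of 19938 genes on the array; 33 had 1 probe set and Zfp985 had 3. The rule itself reads symbols and no measured value. The gene table of assembly GRCm38.p6 holds 62 symbols in this range: 34 had a probe set of their own, 18 were named only on probe sets shared with other genes, and 10 were on none. The shared probe sets are described apart from the 34 members.

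Total RNA from 4 mouse samples had been hybridised to Affymetrix whole-transcript arrays, 1 array each: embryonic fibroblasts (MEF), 178B5 and 492B4, which are induced pluripotent stem (iPS) lines, and v6.5, an embryonic stem (ES) line. A mixed background of DBA/2, C57BL/6 and 129S4 is given for MEF and both iPS lines, and an F1 of 129 and C57BL/6 for ES. The comparison of ES with the other samples was therefore also one between strains. MEF were grown in DMEM with serum, and the pluripotent lines in ES medium on SNL feeder cells treated with mitomycin C; the labels do not say whether feeders were removed before RNA was isolated. Each line is 1 culture on 1 array as far as the labels tell.

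Most tandem-repeated zinc finger genes in rodents encode KRAB zinc finger proteins. The fingers bind DNA, often in a transposable element, and the KRAB domain recruits the corepressor KAP1 (TRIM28), which brings the histone methyltransferase SETDB1 and other silencing factors. In mouse ES cells this pathway silences endogenous retroviruses and holds methylation at imprinted genes. The genes arose by local duplication, lie in clusters, and differ in number and sequence between mouse strains. An array probe can therefore bind a relative of the named gene, or bind one strain's copy less well.

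The deposited values are log2 differences, with the log base taken as 2. Each probe set was centred on its median over the arrays, so a value of 0 is the middle of the 4 arrays and says nothing of how strongly a gene was expressed. A gene was called where the mean of the 3 pluripotent lines differed from MEF by at least 1 log2 at an adjusted p under 0.05 (limma, Benjamini-Hochberg over 19938 genes). The spread came from the 3 lines, and MEF, with 1 array, was taken to vary as they do. Markers were checked against the labels: 12 of 12 pluripotency markers were called higher in the lines, with a median difference of 6.02, and 8 of 12 fibroblast markers were called lower. All 12 fibroblast markers were higher on the ES array than in the mean of the iPS lines, by a median of 1.94, and 8 of 8 primitive endoderm markers were lower there, by a median of 1.44. In whole cultures, more cells of a type and more RNA per cell cannot be told apart.

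Among the 34 genes, 10 were called higher in the pluripotent lines (29.4%) and 0 lower. Over all genes the shares were 7.9% higher and 9.71% lower, and among 307 other genes named Zfp with a number they were 5.54% each way. At an unadjusted p under 0.05, limma gave 11 members higher and 1 lower, against 3338 and 4191 of 19938 genes. The median difference of the members was 0.24 log2, against -0.10 for all genes and 0.055 for the other Zfp genes. Every line lay above MEF for 19 members (30.1% of all genes) and below MEF for 11 (47.7% of all genes). Every line was above MEF by at least 1 log2 for 7 members (7.03% of all genes) and below by that much for 0 (8.71% of all genes). For 12 members all 3 lines lay within 0.5 log2 of MEF. When the arrays were scaled to equal medians of 12 reference genes, the members' median fell to -0.04 and that of all genes to -0.38. Zfp943 was then called lower. Before that scaling, 2 of the 12 reference genes were themselves called higher in the lines and 2 lower, with a median difference of 0.30 log2.

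**Figure D1:**
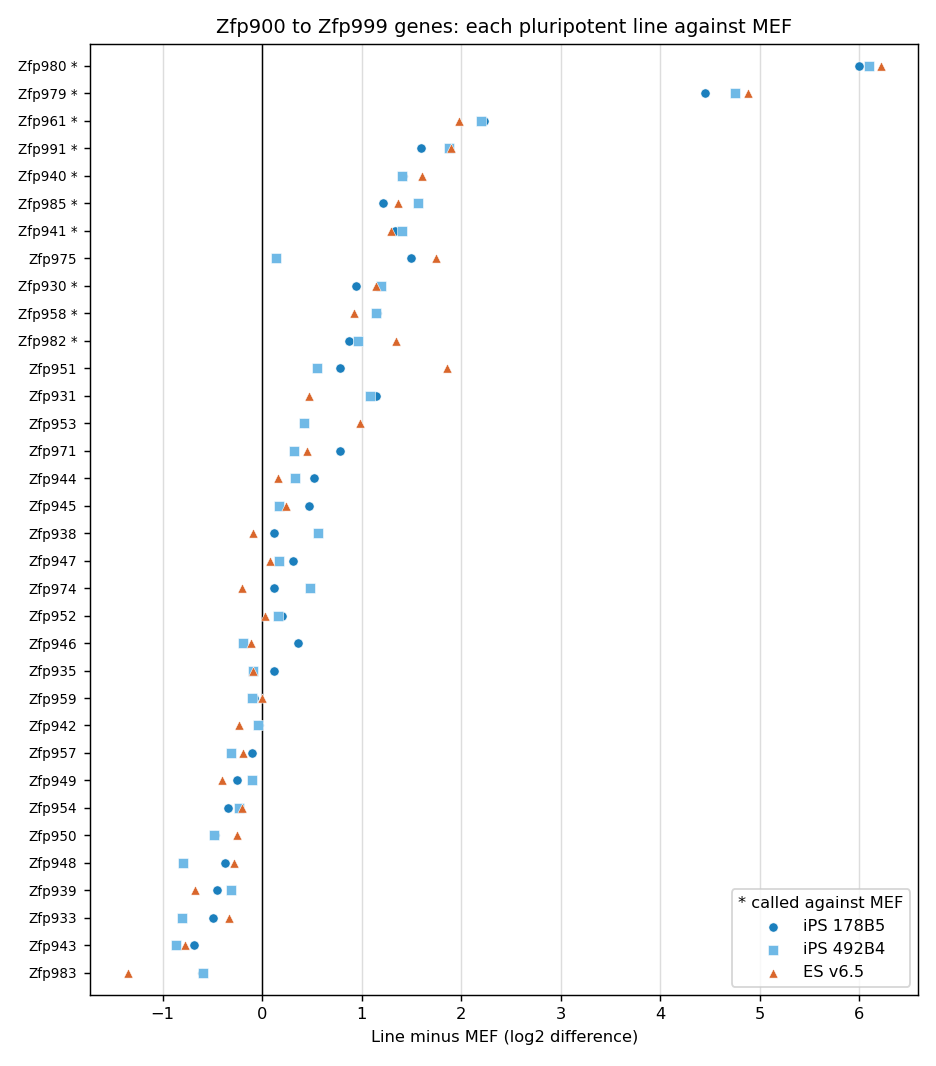
Each of the 34 genes is a row, ordered by its mean difference, and each point is 1 pluripotent line minus MEF on the log2 scale; an asterisk marks a gene called against MEF. Zfp980 and Zfp979 stand far to the right, with differences of 6.10 and 4.70, and the lowest gene, Zfp983, has a mean difference of -0.85.

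**Figure D2:**
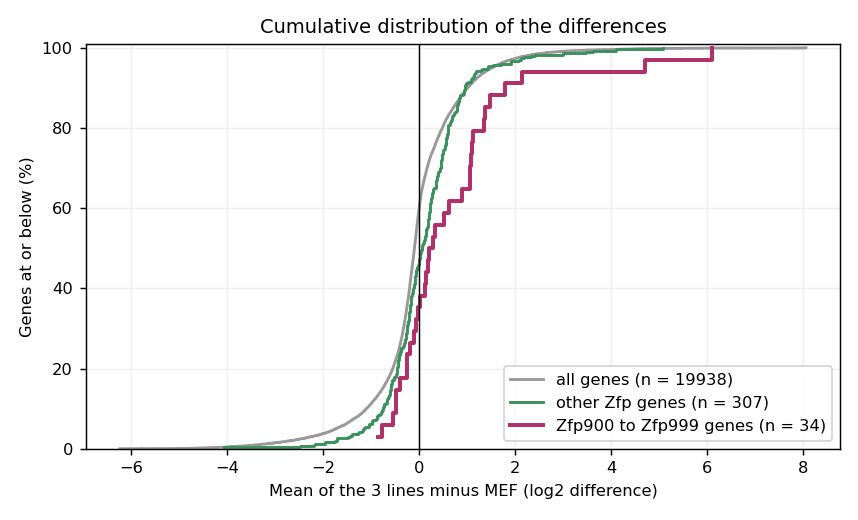
Cumulative share of genes (vertical axis, percent) at or below each difference of the lines from MEF (horizontal axis, log2) for the 34 genes, 307 other Zfp genes and all 19938 genes. The curve of the 34 genes runs below the others above 0, where 10 genes were called, and it ends at -0.85 on the left.

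The chromosome 4 cluster held Zfp980 and Zfp979, the 2 members with the highest differences. It has 6 members, in the order Zfp980, Zfp991, Zfp982, Zfp985, Zfp979 and Zfp933, where a cluster is a run of members with at most 10 other protein-coding genes between neighbours. Of these 6, 5 were called higher, and their median difference was 1.59 log2, against 0.16 over the 28 members elsewhere, of which 5 were called. Proteins of this cluster bind and silence endogenous retroviruses, among them IAP and ETn elements, in mouse ES cells.

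Zfp980 was at -6.05 on MEF, -0.05 on iPS 178B5, 0.05 on iPS 492B4 and 0.17 on ES. MEF stood alone below 3 lines that lay within 0.22 log2 of each other. The difference was 6.10 ± 0.11 log2 (SD, n = 3 lines), 68.8-fold, with an adjusted p of 0.00211 (limma), and it ranked 7 of 19938 genes by rise. The ranks of the core pluripotency genes Pou5f1 and Nanog were 4 and 11.

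Zfp979 was at -4.60 on MEF, -0.15 on iPS 178B5, 0.15 on iPS 492B4 and 0.28 on ES. Again the 3 lines lay together, above MEF. Its rise of 4.70 ± 0.22 log2 (SD, n = 3 lines) ranked 34 of all genes, with an adjusted p of 0.00479 (limma).

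Zfp991 was at -1.74 on MEF and at -0.14, 0.14 and 0.16 on iPS 178B5, iPS 492B4 and ES, a rise of 1.79 ± 0.17 log2 with an adjusted p of 0.00879 (limma). Zfp985 was at -1.22 on MEF and at -0.01, 0.35 and 0.14 on the lines in the same order. Its rise was 1.38 ± 0.18 log2 with an adjusted p of 0.0145 (limma). The 3 probe sets of Zfp985 gave rises of 1.87, 1.30 and 0.97 log2; all had MEF lowest, and their order of the lines differed. Fitted singly, only the first was called (adjusted p 0.0267, limma); the second had an adjusted p of 0.0831 and the third was under the fold minimum.

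Zfp982, described as a regulator of pluripotency genes in mouse ES cells, was at -0.92 on MEF, -0.05 on iPS 178B5, 0.05 on iPS 492B4 and 0.43 on ES. MEF was lowest and ES highest. The rise of 1.06 ± 0.25 log2 (SD, n = 3 lines) was near both thresholds, with an adjusted p of 0.0406 (limma), and the call was lost when any of the 3 lines was left out. Without ES the difference was 0.92 log2, and without iPS 178B5 the adjusted p was 0.0925.

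Zfp933, at the far end of the cluster, went the other way: it was at 0.41 on MEF and at -0.08, -0.39 and 0.08 on iPS 178B5, iPS 492B4 and ES. MEF was highest, but the difference of -0.54 ± 0.24 log2 did not pass the test (adjusted p 0.169, limma).

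The promoters of these genes are shown because those of Zfp980, Zfp979, Zfp985 and a window of Zfp982 resemble each other and that of Zfp933 does not. RefSeq windows of 300 bases around the start site (GRCm38.p6) exist for 32 of the 34 members; Zfp930 and Zfp991 have none. Zfp982 has 3 windows, and the one most like that of Zfp980 is given. Each is printed 5′ to 3′ on the gene's strand, and capitals mark GGGCGG, the box bound by SP and KLF factors, or CACGTG, an E-box. The windows are chr4:145670447-145670746 (plus strand) for Zfp980, chr4:147642459-147642758 (minus) for Zfp979, chr4:147492167-147492466 (plus) for Zfp982, chr4:147553027-147553326 (plus) for Zfp985 and chr4:147848369-147848668 (minus) for Zfp933.
Zfp980: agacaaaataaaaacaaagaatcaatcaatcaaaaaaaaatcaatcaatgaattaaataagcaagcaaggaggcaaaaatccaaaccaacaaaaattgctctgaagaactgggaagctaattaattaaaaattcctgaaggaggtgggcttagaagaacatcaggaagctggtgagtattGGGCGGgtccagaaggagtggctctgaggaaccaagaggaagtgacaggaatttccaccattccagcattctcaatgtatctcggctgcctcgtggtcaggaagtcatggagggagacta
Zfp979: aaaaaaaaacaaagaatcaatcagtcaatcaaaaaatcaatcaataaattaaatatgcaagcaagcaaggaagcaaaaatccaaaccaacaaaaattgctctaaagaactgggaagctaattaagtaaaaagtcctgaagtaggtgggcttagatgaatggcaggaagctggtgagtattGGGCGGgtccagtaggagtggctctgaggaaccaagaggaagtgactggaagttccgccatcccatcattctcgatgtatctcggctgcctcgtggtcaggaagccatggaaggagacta
Zfp982: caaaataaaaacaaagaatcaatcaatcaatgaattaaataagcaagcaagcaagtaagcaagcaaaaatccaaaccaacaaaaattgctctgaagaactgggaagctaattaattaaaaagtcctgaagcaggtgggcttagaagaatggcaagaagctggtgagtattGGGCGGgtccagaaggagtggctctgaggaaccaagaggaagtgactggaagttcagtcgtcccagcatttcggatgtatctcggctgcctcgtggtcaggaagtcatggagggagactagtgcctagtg
Zfp985: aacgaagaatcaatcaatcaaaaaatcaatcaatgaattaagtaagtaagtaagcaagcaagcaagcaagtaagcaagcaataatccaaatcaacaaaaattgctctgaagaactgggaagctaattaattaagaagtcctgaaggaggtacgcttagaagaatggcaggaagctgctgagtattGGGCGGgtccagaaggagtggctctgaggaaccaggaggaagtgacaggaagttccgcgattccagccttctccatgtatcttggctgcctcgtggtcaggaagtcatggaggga
Zfp933: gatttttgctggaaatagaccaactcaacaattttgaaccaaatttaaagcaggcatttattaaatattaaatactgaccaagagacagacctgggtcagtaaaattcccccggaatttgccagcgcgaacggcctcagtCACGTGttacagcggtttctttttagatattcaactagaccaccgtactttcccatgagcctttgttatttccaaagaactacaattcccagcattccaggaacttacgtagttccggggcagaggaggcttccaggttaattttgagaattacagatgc

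In the 4 rising genes printed above, the GGGCGG box sits in the same surroundings. It lies 70 bases before the start site in Zfp980 and Zfp979, 80 in Zfp982 and 65 in Zfp985. Their windows were 81.9% to 89.8% identical to each other over aligned positions; Zfp979 and Zfp980 were the most alike. The other windows of Zfp982 were 45.1% and 46.1% identical to that of Zfp980, so the likeness holds for 1 of its windows. Zfp933 has no GGGCGG in its window, holds a CACGTG 110 bases before its start, and was 49.6% to 51.0% identical to the other 4. A link between these windows and the differences from MEF was not tested. Zfp980 and Zfp982, with windows 83.7% identical, rose by 6.10 and 1.06 log2. Pairs of members that do not share the chromosome 4 or chromosome 17 cluster had a median identity of 50.3%. Their maximum, 79.4%, was that of Zfp931 and Zfp971, which lie together on chromosome 2. Among neighbours that are no members, likeness varied: the windows of Rex2 and Zfp600 were 99.3% identical, and that of Zfp993 was 45.4% to 52.0% identical to the others. Every member of the cluster but Zfp933 is also named on a shared probe set.

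**Figure D3:**
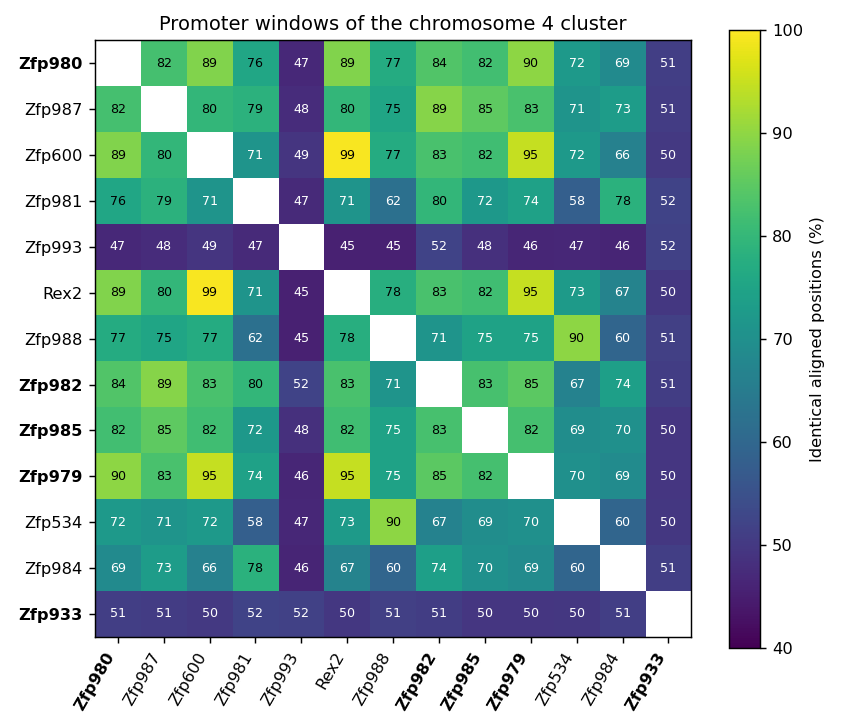
Percent of identical aligned positions between the RefSeq promoter windows of genes of the chromosome 4 cluster. Bold names are members, and brighter (yellow) cells are more alike. Zfp979, Zfp980, Zfp982 and Zfp985 are 81.9% to 89.8% identical, and Zfp933 is at most 51.0% identical to any of these 4.

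Motifs were searched on both strands of all 32851 windows of this length. A member counted where any of its windows held the letters, and 5 members have several windows. The shares of all windows count single windows, so they differ in unit from those of members. GGGCGG was in 13 of 32 members with a window (40.6%), against 35.7% of all windows, and in 4 of the 8 called members with a window. CACGTG was in 6 members, against 7.15% of all windows: Zfp933 and, on chromosome 17, Zfp942, Zfp943, Zfp944, Zfp946 and Zfp947. CCGGAAGT, an ETS site, was in 3 members (3.89% of all windows) and TGACGTCA, the cAMP response element, in Zfp953 alone (1.79%). No member window held the POU octamer ATGCAAAT (1.74%), the ERR element TCAAGGTCA (0.423%) or TATAAA (13.6%), which says only that these letters are not in these windows.

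The region between the members is filled with further zinc finger genes that the array cannot separate. On the probe set shared by Rex2, Zfp981, Zfp980, Zfp600, Zfp987 and Zfp979, MEF was at -6.00 and the lines at -0.04, 0.04 and 0.13, a difference of 6.05 log2. Probe sets of 10 chromosome 4 symbols gave 4.15 and 3.20 log2, and one of 13 symbols gave 3.67. Those of 8 and of 5 symbols gave 2.18 and 1.71 log2. Zfp600 had a probe set of its own and rose by 3.0 ± 0.05 log2 (SD, n = 3 lines). Which of these genes gave the signal was not tested.

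The genes beside the cluster varied in direction. They were chosen after the cluster's values were seen. On one side Dhrs3, a retinaldehyde reductase, was called lower at -3.72 log2, and Tnfrsf1b, a TNF receptor, was called lower at -1.81. On the other side Miip was called higher at 1.76, Fv1, a retroviral restriction gene, differed by 0.50 without passing the test, and Mfn2, a mitochondrial fusion gene, was called lower at -1.40. Tnfrsf8 differed by 0.19 and did not pass.

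**Figure D4:**
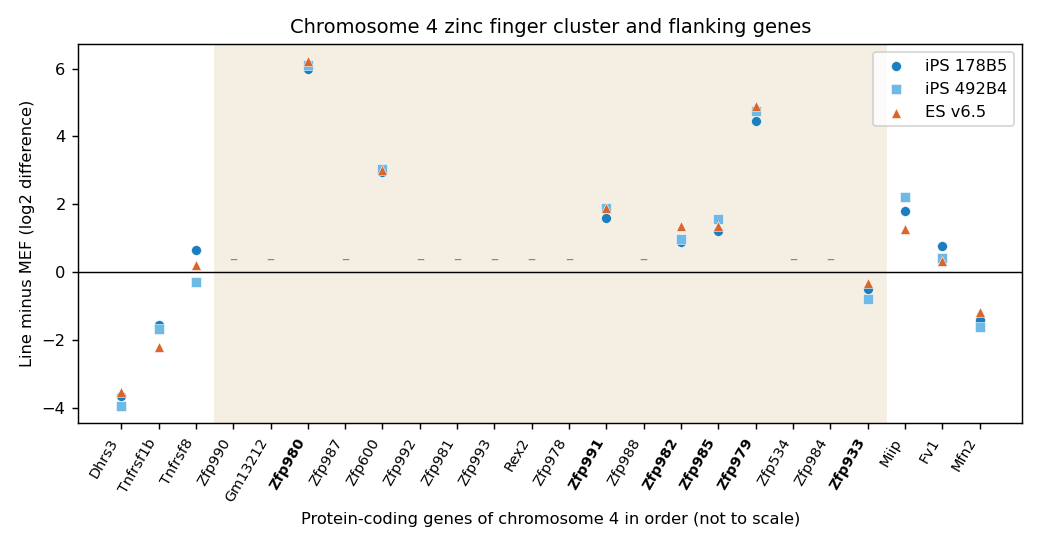
Protein-coding genes of the chromosome 4 cluster (shaded) and its flanks, in order but not to scale, with each line minus MEF in log2; bold names are members and a dash marks a gene without a probe set of its own. Zfp980, Zfp600 and Zfp979 are at 6.10, 3.0 and 4.70 log2 on average, and Dhrs3 beside the cluster is at -3.72.

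The chromosome 17 cluster has 8 members: Zfp948, Zfp983, Zfp942, Zfp943, Zfp947, Zfp944, Zfp946 and Zfp945. None was called in either direction. At an unadjusted p under 0.05, limma gave 1 of them, against 7529 of 19938 genes. Differences of the cluster's members ran from -0.85 to 0.34 log2 with a median of -0.04. Zfp943 was at 0.73 on MEF and at 0.05, -0.14 and -0.05 on iPS 178B5, iPS 492B4 and ES. All lines lay below MEF by -0.78 ± 0.09 log2 with an adjusted p of 0.0292 (limma), a difference smaller than the minimum for a call. Zfp944 and Zfp945 had the highest differences here, 0.34 and 0.29 log2, and did not pass.

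Promoters in the chromosome 17 cluster were more diverse, with a median identity of 50.9% over 28 pairs and one close pair, Zfp942 and Zfp944, at 84.3%. Those 2 genes differed from MEF by -0.10 and 0.34 log2. Zfp942 and Zfp943 are transcribed away from each other and their windows overlap by 194 bases, so the same stretch carries the boxes counted in both. Their differences from MEF were -0.10 and -0.78 log2.

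On chromosome 2, Zfp971 and Zfp931 form a cluster of 2 members. Zfp931 was at -0.78 on MEF, 0.36 on iPS 178B5, 0.30 on iPS 492B4 and -0.30 on ES. Both iPS lines stood above ES, and the mean difference of 0.90 log2 did not pass over the 3 lines (adjusted p 0.117, limma). Zfp971 differed by 0.52 log2 and did not pass. Shared probe sets of this region list between 14 and 18 symbols and gave 0.17 to 0.45 log2, none of them called.

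The other 18 members lie outside these clusters, and 5 of them were called higher: Zfp961, Zfp940, Zfp941, Zfp930 and Zfp958. Zfp961, on chromosome 8, was at -2.09 on MEF, 0.14 on iPS 178B5, 0.11 on iPS 492B4 and -0.11 on ES. The lines lay together above MEF, by 2.13 ± 0.13 log2 (SD, n = 3 lines) with an adjusted p of 0.00596 (limma). Its promoter window (chr8:71950816-71951115, plus strand) is shown for contrast with chromosome 4. It holds none of the 7 motifs, so it has no capitals, but it has 21 CG pairs where those of Zfp980 and Zfp979 have 3 and 5, and the median of all windows is 7.
Zfp961: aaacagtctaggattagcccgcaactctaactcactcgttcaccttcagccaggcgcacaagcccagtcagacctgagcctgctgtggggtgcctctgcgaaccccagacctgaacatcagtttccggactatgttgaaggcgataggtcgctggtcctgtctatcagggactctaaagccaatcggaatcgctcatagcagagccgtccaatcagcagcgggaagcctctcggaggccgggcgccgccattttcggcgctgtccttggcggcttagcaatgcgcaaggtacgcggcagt

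Zfp940 and Zfp941 lie on chromosome 7. Zfp940 was at -1.41 on MEF and at 0.01, -0.01 and 0.20 on iPS 178B5, iPS 492B4 and ES, a rise of 1.48 ± 0.11 log2 with an adjusted p of 0.00909 (limma). Zfp941 was at -1.32 on MEF and at 0.02, 0.09 and -0.02 on the lines, a rise of 1.35 ± 0.05 log2 with an adjusted p of 0.00854 (limma). The 3 lines differed by no more than 0.20 log2 in either gene, and MEF was lowest in both.

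Zfp930 and Zfp958, on chromosome 8, had the smallest rises of these 5 genes. Zfp930 was at -1.05 on MEF and at -0.10, 0.14 and 0.10 on iPS 178B5, iPS 492B4 and ES, a rise of 1.10 ± 0.13 log2 (adjusted p 0.0170, limma). Zfp958 was at -1.03 on MEF and at 0.12, 0.11 and -0.11 on the lines, a rise of 1.07 ± 0.13 log2 (adjusted p 0.0176, limma). MEF was lowest in both, and both calls were lost when the arrays were scaled to the reference genes. That scaling also removed the call of Zfp982, whose difference became 0.78 log2.

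Leaving out iPS 178B5 removed 6 of the 10 calls, those of Zfp930, Zfp940, Zfp941, Zfp958, Zfp982 and Zfp985, so 4 remained: Zfp980, Zfp979, Zfp961 and Zfp991. The adjusted p of the 6 genes then lay between 0.0514 and 0.0925 (limma, with 2 lines left), while their differences were 1.03 to 1.51 log2. Over all genes the calls fell as well, from 1576 higher and 1936 lower to 613 and 744.

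Of the 27 shared probe sets that name a Zfp900 to Zfp999 gene, 13 were called higher and 0 lower. Among all 28853 probe sets the shares were 6.85% higher and 7.71% lower. Many of the 27 list the same symbols, so they are not separate observations. Outside chromosome 4, 2 probe sets shared by Zfp932 and Gm15446, genes known to silence endogenous retroviruses, gave called rises of 1.41 and 1.10 log2. A probe set of 4 symbols that include Zfp960 and Zfp97 rose by 1.65 log2. The probe set of EU599041, Zfp936 and Zfp975 was at -3.01 on MEF, 0.28 on iPS 178B5, -0.28 on iPS 492B4 and 0.97 on ES, a called rise of 3.34 log2. The lines were well above MEF there and also apart from each other.

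Between iPS and MEF, 10 members were called higher (9.94% of all genes) and 0 lower (11.2% of all genes). At an unadjusted p under 0.05, limma gave 4 members lower, against 4988 of 19938 genes. Between ES and MEF, 10 were called higher (9.14% of all genes) and 1 lower, Zfp983 (10.9% of all genes). Both comparisons share the MEF array and rest on a fit with 1 residual degree of freedom, whose spread comes from the iPS lines alone. ES and MEF have 1 array each and were taken to vary as the iPS lines do, so the calls in ES have no replicate of their own. Zfp931 was called in iPS (1.11 log2) and differed by 0.48 log2 in ES. Zfp951 was called in ES (1.86 log2) and differed by 0.66 log2 in iPS. Zfp982 differed by 0.92 log2 in iPS and was called at 1.35 log2 in ES, while Zfp958 was called at 1.15 log2 in iPS and differed by 0.93 in ES.

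ES and iPS were compared directly in the same fit. No member was called between them, as for all genes (0%), while 5 members and 3079 of 19938 genes had an unadjusted p under 0.05 (limma). ES lay above both iPS lines by at least 0.5 log2 for 2 members (4.56% of all genes) and below both by that much for 2 (4.78% of all genes). Strain, origin of the line and the marker differences between the ES and iPS arrays given above move together here; their part in these differences was not tested, and strain and cell type cannot be told apart.

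Zfp951, on chromosome 5, was at -0.66 on MEF, 0.11 on iPS 178B5, -0.11 on iPS 492B4 and 1.20 on ES. ES stood alone, above the iPS mean by 1.20 log2 (adjusted p 0.138, limma). Zfp953, on chromosome 13, was at -0.42 on MEF, near 0 on both iPS lines and at 0.56 on ES, so ES lay 0.56 log2 above the iPS mean (adjusted p 0.235, limma). In both genes MEF was lowest and ES highest.

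The opposite order was seen in Zfp983, of the chromosome 17 cluster, which was at 0.60 on MEF, below 0.01 in size on both iPS lines and at -0.75 on ES. ES was lowest, 0.75 log2 below the iPS mean, with an adjusted p of 0.174 for that difference (limma), and it was called lower than MEF, by -1.35 log2. A probe set shared by Gm10509 and Zfp983 had ES 0.82 log2 below the iPS mean, and one that also names Zfp51 had it 0.69 below. Zfp931 had ES 0.63 log2 below the iPS mean (adjusted p 0.211, limma). Zfp974, on chromosome 7, was at -0.06 on MEF, 0.06 on iPS 178B5, 0.42 on iPS 492B4 and -0.26 on ES, which lay 0.50 log2 below the iPS mean (adjusted p 0.369, limma).

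**Figure D5:**
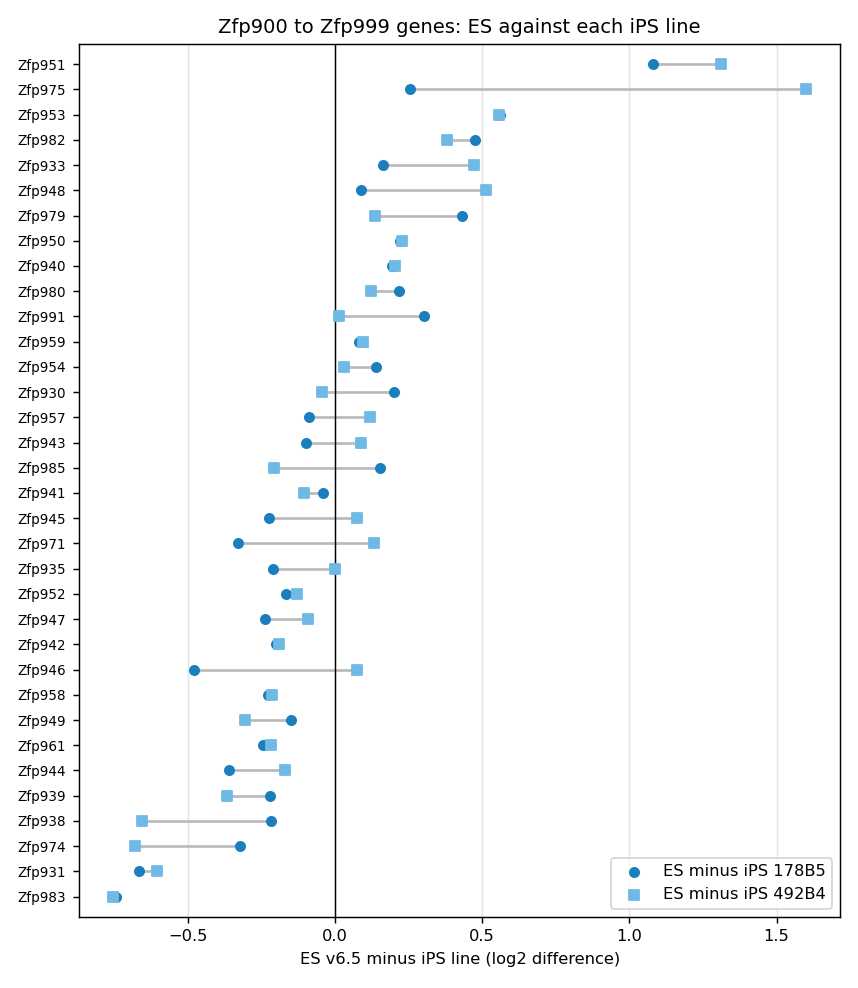
ES minus each iPS line in log2 for the 34 genes, ordered by the mean of the 2 differences; the bar joins the 2 iPS lines. ES is above both lines by over 0.5 log2 in Zfp951 and Zfp953 and below both by over 0.5 in Zfp931 and Zfp983, and the wide bar of Zfp975 comes from iPS 492B4.

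The iPS lines have the same labelled background and were compared by value, with no test. They differed by at least 0.5 log2 in 2 members (6.96% of all genes), Zfp975 and Zfp946. Zfp975, on chromosome 7, was at -0.82 on MEF, 0.67 on iPS 178B5, -0.67 on iPS 492B4 and 0.93 on ES. Line 492B4 was near MEF and the other lines were higher, so the mean difference of 1.13 ± 0.86 log2 did not pass (adjusted p 0.306, limma); without 492B4 it was 1.62 log2 with an adjusted p of 0.0261. On the 3 shared probe sets that name Zfp975, iPS 492B4 was again the lowest line and ES was highest. Line 492B4 was at -0.28, -0.36 and -0.37 there, against 0.28, 0.36 and 0.37 on iPS 178B5. It was not near MEF on these probe sets but above it, by 2.73, 2.43 and 1.49 log2.

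Zfp946, on chromosome 17, was at 0.06 on MEF, 0.42 on iPS 178B5, -0.13 on iPS 492B4 and -0.06 on ES, so only 178B5 stood apart. Zfp971 had 492B4 0.46 log2 below 178B5. Over the 34 members the root mean square difference was 0.33 log2 between the iPS lines, 0.358 between 178B5 and ES, and 0.476 between 492B4 and ES. Over all genes the same 3 values were 0.276, 0.404 and 0.486. Against MEF the members' values were 1.53, 1.57 and 1.64 for 178B5, 492B4 and ES, and those of all genes were 1.05, 1.12 and 0.98. The median absolute differences, which weigh Zfp980 and Zfp979 less, were 0.507, 0.516 and 0.463 for the members and 0.382, 0.439 and 0.354 for all genes.

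The factors that KRAB zinc finger proteins work through were also measured, from a list of 26 genes of which 24 were on the array with their own probe sets. In this list 11 genes were called higher and 1 lower, against 7.9% and 9.71% of all genes, and the median difference was 0.94 log2, against -0.10. Trim28, which encodes KAP1 and is named for its role, was at -1.42 on MEF and at -0.03, 0.03 and 0.23 on iPS 178B5, iPS 492B4 and ES, a rise of 1.495 ± 0.13 log2 (adjusted p 0.00972, limma). Setdb1 rose by 1.27 log2. The highest rises in the list were of 2.22 log2 in Uhrf1, which targets the maintenance methyltransferase Dnmt1, of 1.84 in Morc3, a silencing ATPase, and of 1.83 in Suv39h2, a histone methyltransferase. Chd3, a remodeller of the NuRD complex, fell by 2.39 log2. The partners Cbx3 and Cbx5 differed by 0.60 and 0.51 log2 and did not pass.

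Of 13 KRAB zinc finger genes outside the range whose targets have been described, 10 were measured, and 4 of them were called higher and 0 lower, against the same shares of all genes. At an unadjusted p under 0.05 limma gave 4 higher and 0 lower, against 3338 and 4191 of 19938 genes. The 4 were Zfp600 at 3.0 log2, Zfp57, which protects methylation at imprinted genes, at 2.19, Zfp568, which silences a placental promoter of Igf2, at 1.71, and Zfp819 at 1.43. Zfp445, which acts with Zfp57 at imprinted genes, differed by 0.23 log2, and Zfp809, which recognises the primer binding site of murine leukaemia viruses, by 0.15; neither passed. These lists were drawn up with results of these arrays known, so their counts are descriptions.

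The remaining members had mean differences closer to 0. Zfp938, Zfp947, Zfp952, Zfp935, Zfp959, Zfp957, Zfp949, Zfp954, Zfp950, Zfp948 and Zfp939 had mean differences from -0.48 to 0.20 log2, and none passed the test. Single lines lay farther from MEF in some of them, such as Zfp948 at -0.79 in iPS 492B4, Zfp939 at -0.68 in ES and Zfp938 at 0.56 in iPS 492B4. Zfp950, on chromosome 19, was at 0.37 on MEF, -0.11 on iPS 178B5, -0.12 on iPS 492B4 and 0.11 on ES, a difference of -0.41 log2 with an adjusted p of 0.160 (limma). A shared probe set of Zfp950 and Arid4b gave -0.49 log2, while the 2 that list Zfp950 with Zfp932 and 3 other symbols rose by 1.29 and 1.16, so probe sets with this symbol differed in direction.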

How the data were processed

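The log2 values deposited by the authors cover 28853 probe sets on each of the 4 arrays. GCRMA made them, per the submitters' processing notes; it removes background and makes arrays comparable. The version and the log base are not given in the sources used here, so log2 is a reading. Every probe set had a median of 0 over the arrays (largest size 5.0e-07), so the table holds differences between arrays, not levels. Values could not be set against background, and a gene that was dim on all arrays is not marked.

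The members and gene lists were chosen with earlier results of these data known. Names came from the platform annotation: 21789 probe sets had 1 symbol and were averaged per gene, 1621 had several and 5443 had none. All 34 member identifiers were found in the GRCm38.p6 gene table, and 0 symbols changed.

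All 19938 genes were fitted in limma 3.58.1 (R 4.3.3), with Benjamini-Hochberg adjustment. The fit of the 3 lines against MEF had 2 residual degrees of freedom. The fit of MEF, iPS and ES as 3 groups had 1, and assumed the lone ES and MEF arrays to vary like the iPS lines. The code was tested on simulated data. The lines are separate cell lines with 1 array each, so a p-value covers no more than the spread among these lines, and the number of arrays limits precision.

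Named genes were all called members, and the 3 members with the largest differences each way between iPS and ES. The 3 with the largest differences between the iPS lines were added, with up to 4 called genes per list by size. Trim28, Setdb1, Nanog, Cbx3, Cbx5, Zfp445, Zfp809, the flanking genes and other members were named after their values were seen. Promoters came from RefSeq windows of 300 bases (GRCm38.p6) and were aligned with Biopython 1.88, taking the most similar pair where a gene had several windows. Protein sequences, finger counts and KRAB boxes were planned and not analysed here. Alternatives changed the array scaling, the probe set rule, the moderation, the thresholds, the design and the lines included; a fit of all probe sets was added after seeing the data.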

Additional observations from a re-analysis of the deposited data

Results flagged for a closer look

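For 2 members, Zfp938 and Zfp974, both iPS lines lay above MEF and ES below it. The iPS mean exceeded ES by 0.44 and 0.50 log2, and neither gene was called in the direct comparison of iPS with ES. Zfp938 was 0.12 and 0.56 log2 above MEF in iPS 178B5 and 492B4 and at -0.0948 in ES. Zfp974 was 0.12 and 0.48 log2 above MEF in the iPS lines and at -0.1985 in ES. The same directions against MEF were seen on 2 shared probe sets, where iPS and ES were not compared by a test. That of Gm10509, Zfp983 and Zfp51 had 0.48 and 0.21 log2 in the iPS lines and -0.3442 in ES. That of Zfp442, Zfp937 and 3300002I08Rik had 0.14 and 0.13 log2 in the iPS lines and -0.0868 in ES. None of these was called against MEF.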

How the results depend on the processing

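The count of members called in the lines against MEF was 10, and ranged from 4 to 10 when 1 line was left out. The 4 came without iPS 178B5, where 2 lines remained and calls over all genes fell from 1576 to 613 higher and from 1936 to 744 lower. Scaling the arrays to the reference genes reversed the members' median from 0.24 to -0.0369 log2 and lowered the median of all genes from -0.10 to -0.38. It gave 7 members higher and 1 lower. Of the 12 reference genes, 2 were themselves called higher in the lines and 2 lower before that scaling. The same scaling turned Zfp946 to -0.2623 and Zfp974 to -0.1462, neither called under any setting. Leaving out 1 line in turn gave -0.1537 to 0.1249 for Zfp946, with the lowest value without iPS 178B5, and -0.0377 to 0.3025 for Zfp974, with the lowest value without iPS 492B4. Zfp951 was called in the 3-group fit (adjusted p 0.0138, limma). Other settings kept the count within 9 to 11, and 0 members were called between iPS and ES under every setting run. No paired analysis was possible, because MEF, ES and each iPS line have 1 array each. A filter on dim probe sets, another normalization and a scan batch were not run, since the table holds no levels and no scanner file or batch was used here.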
